A study of Daphnia magna with 230 samples.

Results

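The 10 libraries described here measured how neonates of the water flea Daphnia magna responded to pyriproxyfen in water from the Woodland wetland. They were picked by the name of the wetland in their titles, and they are 10 of 230 libraries in the series and 10 of 69 in its wetland experiment. The study placed animals from a culture bought from Carolina Biological Supply, less than a day old at the start, for 96 h into thawed and filtered water from 6 Minnesota wetlands sampled in summer, or into laboratory water. Woodland was in the study's low category of biological integrity. The unspiked group (n = 5 libraries) was kept in Woodland water with the ethanol vehicle, and the spiked group (n = 5), labelled Woodland Wetland-119 ng/L, in Woodland water with that nominal concentration of pyriproxyfen in ethanol. Laboratory water served as a reference (5 unspiked and 5 spiked libraries at the same nominal concentration), and its unspiked group had no ethanol, so that ethanol and pyriproxyfen cannot be told apart there. A library was made from the whole bodies of 5 neonates, and the 5 pools of a group were drawn at random from the neonates of that treatment after the exposure, so that p-values measure the spread between pools and cover 1 water sample.

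Pyriproxyfen is an insecticide that acts as a juvenile hormone analog. In daphnids the natural hormone of this kind is methyl farnesoate, which induces male offspring, with the sex-determining factor doublesex downstream, and which is also known to raise hemoglobin. Daphnid hemoglobins are large extracellular oxygen carriers built of chains with a pair of globin domains each. They are encoded by several similar genes, and their level is known to rise when oxygen is low.

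Depth did not separate the groups. Library totals lay between 9381120 and 14093185 estimated counts in the unspiked pools and between 6693442 and 12907033 in the spiked pools, a difference in mean log2 total of -0.10 (exact permutation test, two-sided, p = 0.722, where 5 against 5 pools cannot go below 0.0079). Levels are given as CPM, the count scaled by the total of its library and by nothing else, and are compared between libraries, not between transcripts of different length. In pools of whole animals, fewer cells of a type and less RNA per cell cannot be told apart. Transcript names are those in the study's tables, which name 1940 of 29127 transcripts.

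In Woodland water pyriproxyfen changed 3 transcripts beyond the spread between pools. Of 25018 transcripts tested with the quasi-likelihood test of edgeR, 2 rose (0.00799%) and 1 fell (0.004%) with a Benjamini-Hochberg adjusted p under 0.05 and a log2 fold change above 2 in size, the rule by which differentially expressed genes (DEGs) are counted here. With DESeq2 there were 26, of which 10 were higher and 16 lower in the spiked pools, the 3 of edgeR among them. At an unadjusted p under 0.05, 440 were higher (1.76%) and 613 lower (2.45%) in the spiked pools. The 5 spiked pools lay wholly above the 5 unspiked pools for 0.46% of the transcripts and wholly below them for 0.216%, or 54 transcripts.

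The DEG with the larger rise was Dapma7bEVm015367, a di-domain hemoglobin precursor. Its level was 73.2, 53.6, 31.8, 42.8 and 38.7 CPM in unspiked pools 1 to 5 and 828, 572, 671, 938 and 677 CPM in spiked pools 1 to 5. The groups were far apart, with the lowest spiked pool at 572 and the highest unspiked pool at 73.2 CPM. The mean rose 15.4-fold, from 48.0 ± 16.1 to 737 ± 144.7 CPM (SD, n = 5 each), a log2 fold change of 3.84 (SE 0.29, adjusted p = 0.00136, edgeR).

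The other DEG that rose, Dapma7bEVm018388, is named only as an uncharacterized protein. It had 48.1, 37.6, 32.3, 52.8 and 40.1 CPM in the unspiked pools and 335, 224.5, 295, 395 and 280 CPM in the spiked pools. No pools overlapped, and as for Dapma7bEVm015367 the highest spiked pool was replicate 4 and the lowest replicate 2. Its mean rose 7.25-fold, from 42.2 ± 8.23 to 306 ± 63.5 CPM (SD, n = 5 each), with a log2 fold change of 2.76 (SE 0.22, adjusted p = 0.00164, edgeR).

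The DEG that fell, Dapma7bEVm023911, is likewise uncharacterized. It had 10.7, 15.9, 7.97, 15.3 and 10.99 CPM in the unspiked pools and 2.11, 1.63, 2.13, 3.36 and 3.19 CPM in the spiked pools. All spiked pools were below all unspiked pools, and the mean was 4.90-fold lower, at 2.48 ± 0.751 against 12.2 ± 3.36 CPM (SD, n = 5 each). The log2 fold change was -2.39 (SE 0.28, adjusted p = 0.0349, edgeR). With 1 library left out it remained a DEG in 1 of 10 fits, that without spiked replicate 4, and lost the call without any one of the other 9, with adjusted p up to 0.200. Its log2 fold change was between -2.54 and -2.26 in these 10 fits. It is also among 16 transcripts that the study selected on these samples as model genes, so that its fall is not independent evidence.

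**Figure D1:**
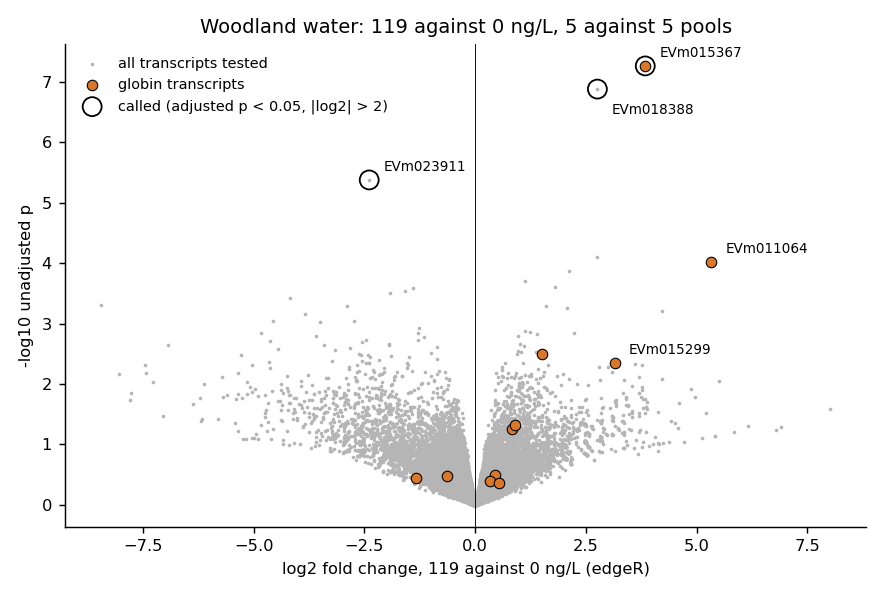
Log2 fold change of each of the 25018 transcripts tested in Woodland water (spiked against unspiked, horizontal axis) against -log10 of the unadjusted p (vertical axis), with the 11 globins in orange and the 3 DEGs ringed. Dapma7bEVm015367 and Dapma7bEVm018388 have the lowest p of all transcripts, and 9 of the 11 globins lie to the right of 0.

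The study's tables name 11 transcripts as globins, and the names were given to transcripts that the study had called on these samples. Of the 11, 1 rose as a DEG in Woodland water, against 0.00799% of all transcripts. At an unadjusted p under 0.05, 5 were higher and 0 lower, against 1.76% and 2.45% of all. In 4 the spiked pools lay wholly above the unspiked pools, against 0.46% of all. Since the list comes from calls on these samples, its counts and direction are not independent evidence. The median log2 fold change of the list was 0.83, against -0.03 over all transcripts tested, with 9 positive and 2 negative. Globin transcripts are alike in sequence, and the assignment of reads by Kallisto divides reads that fit several of them, so that the values of single globins are uncertain.

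Dapma7bEVm011064, another di-domain hemoglobin precursor, had the largest log2 fold change of the list. It was at 1.23, 0, 2.56, 1.44 and 1.60 CPM in the unspiked pools, where 3 counts are 0.213 to 0.320 CPM, and at 25.2, 19.4, 102.3, 113.6 and 42.2 CPM in the spiked pools. The spiked pools were uneven, with replicates 3 and 4 high and replicates 1 and 2 low, and the lowest of them was above the highest unspiked pool. The ratio of means was 44.3 and the log2 fold change 5.33 (SE 0.88), but the transcript was not a DEG (adjusted p = 0.473, edgeR). With DESeq2 it was called, at a log2 fold change of 5.37 and an adjusted p of 7.2e-08.

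Dapma7bEVm015299, also a di-domain precursor, had 108.6, 20.01, 2.17, 39.4 and 24.04 CPM in the unspiked pools and 198.8, 123.2, 298, 837 and 317 CPM in the spiked pools. The groups came close without overlapping, and the spread within each was wide. The log2 fold change was 3.15 (SE 0.88, adjusted p = 0.952, edgeR), and DESeq2 called it at an adjusted p of 0.0429. The globin Dapma7bEVm020224 was scarce, at 0.109 to 0.308 CPM in the unspiked and 0.457 to 1.02 CPM in the spiked pools. These groups did not overlap either, and the log2 fold change of 1.52 (SE 0.40, adjusted p = 0.952, edgeR) was not a DEG.

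The globins with the highest CPM differed less. Dapma7bEVm029622, a di-domain precursor, had 1969, 1357, 1637, 3410 and 1542 CPM in the unspiked pools and 1442, 1177, 4335, 3784 and 3663 CPM in the spiked pools. Spiked replicates 3, 4 and 5 were above every unspiked pool, replicate 2 was below every one and replicate 1 lay among them, so that the groups overlapped (log2 fold change 0.46, SE 0.44). For the di-domain precursor Dapma7bEVm014981 the unspiked pools spanned 417 to 1066 CPM and the spiked pools 414 to 1346 CPM, and the log2 fold change was 0.34 (SE 0.40).

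Globins Dapma7bEVm021628 and Dapma7bEVm002068 each had 3 of 5 spiked pools above all unspiked pools, again replicates 3, 4 and 5. Dapma7bEVm021628 spanned 135.6 to 349 CPM in the unspiked and 219.4 to 795 CPM in the spiked pools, with a log2 fold change of 0.83 (SE 0.39, not a DEG). Dapma7bEVm002068 spanned 57.1 to 129.8 CPM and 83.3 to 224.9 CPM, with 0.90 (SE 0.40, not a DEG).

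The remaining globins were low. Cytoglobin-2 (Dapma7bEVm007706), a member of a family that in vertebrates is found inside cells, lay between 2.27 and 8.63 CPM in the unspiked and between 0.598 and 16.3 CPM in the spiked pools. Dapma7bEVm002046 and Dapma7bEVm011771, both di-domain precursors, had log2 fold changes of -0.63 and -1.34, neither a DEG. In both, unspiked replicate 5 was far above the other 9 pools, at 14.7 against 1.49 to 4.78 CPM and at 7.83 against 0 to 1.58 CPM, and without it both log2 fold changes were positive, at 0.47 and 3.52. Summed over the 11 globins, the level was 2051 to 4977 CPM in the unspiked and 2628 to 7818 CPM in the spiked pools, a difference of 0.81 in mean log2(CPM + 1) that did not pass an exact permutation test (two-sided p = 0.0714, Benjamini-Hochberg adjusted p = 0.286 over the 4 single values tested in this way).

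Transcripts of heme supply did not pass the test. The 2 transcripts named 5-aminolevulinate synthase, the enzyme that opens heme synthesis, had log2 fold changes of 0.33 (SE 0.27, Dapma7bEVm002278) and 0.35 (SE 0.28, Dapma7bEVm027691). Dapma7bEVm002278 had 171.4, 283, 161.9, 232 and 123.6 CPM in the unspiked pools and 244, 195.3, 243, 249.7 and 395 CPM in the spiked pools, of which replicate 5 alone was outside the unspiked range. Heme-binding protein 2 (Dapma7bEVm001221), a name from the study's tables for a transcript that the study's text calls a hemoglobin precursor and that is not among the 11 globins here, varied widely in both groups, at 969, 1826.5, 429, 1691 and 659 CPM in the unspiked and 1195, 1601, 1953, 1567 and 101.1 CPM in the spiked pools, with a log2 fold change of 0.14 (SE 0.64).

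**Figure D2:**
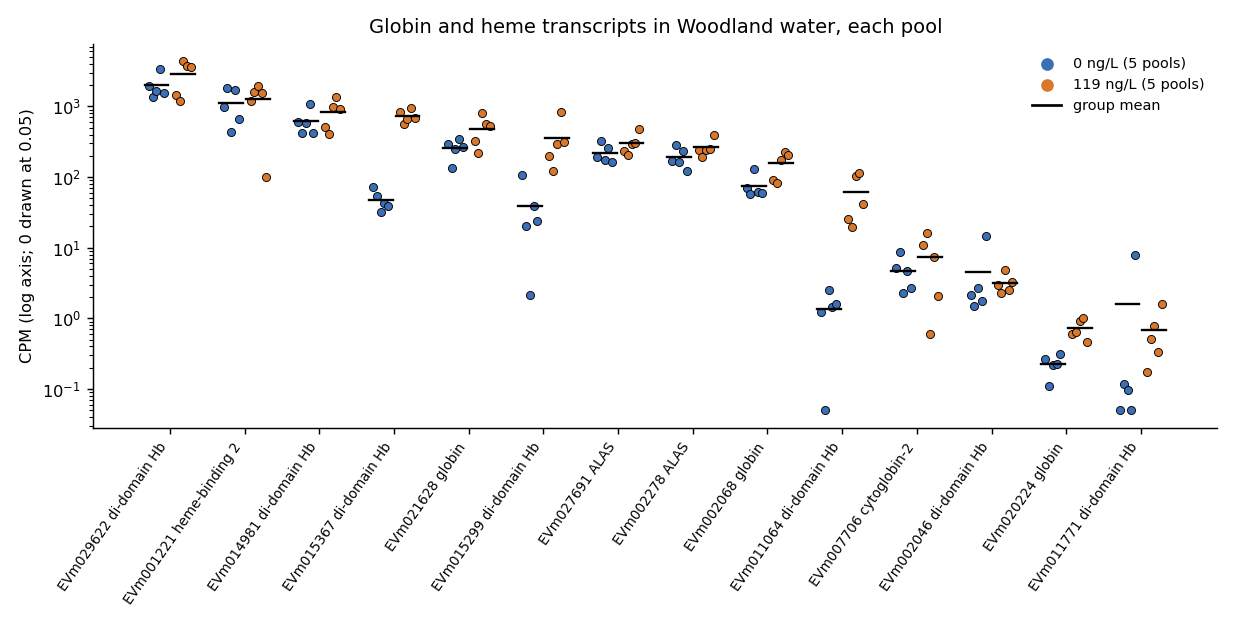
CPM (logarithmic axis) of the globin and heme transcripts in each of the 5 unspiked (0 ng/L, blue) and 5 spiked (orange) Woodland pools, with bars at the group means and a level of 0 drawn at 0.05 CPM. Dapma7bEVm015367 and Dapma7bEVm011064 show groups that lie well apart, while the spiked pools of Dapma7bEVm029622, from 1177 to 4335 CPM, fall on both sides of the unspiked ones.

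Dapma7bEVm005257, named as a transcription factor related to doublesex and mab-3, showed no difference beyond its spread. It had 113.5, 233, 15.8, 119.3 and 11.7 CPM in the unspiked pools and 43.5, 81.2, 52.9, 187.7 and 79.3 CPM in the spiked pools. All spiked pools lay inside the range of the unspiked ones, of which replicates 3 and 5 were low. Mean log2(CPM + 1) was 5.87 ± 1.88 and 6.30 ± 0.802 (SD, n = 5 each), a difference of 0.42 (exact permutation test, two-sided, p = 0.635, adjusted p = 0.722 over the 4 values), while the fitted log2 fold change had the other sign, at -0.20 (SE 0.74). Of the 4 other transcripts in the list of sex determination and hormone receptors, all named as nuclear receptors or ecdysone-induced, 1 was lower at an unadjusted p under 0.05: hormone receptor hr3 (Dapma7bEVm028386), which in insects takes part in the timing of the molt. It was at 2.19, 10.03, 2.18, 5.64 and 2.41 CPM in the unspiked and 1.66, 1.64, 4.04, 1.91 and 1.09 CPM in the spiked pools, which overlap, and it was not a DEG (log2 fold change -1.20, SE 0.52).

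Lists that stand for tissues, stages and physiology had no DEG in Woodland water. Cuticle proteins, the structural proteins of the exoskeleton, had a median log2 fold change of -1.34, with 63 of 74 negative and 11 lower and 1 higher at an unadjusted p under 0.05. For detoxification the median was -0.76 (32 of 44 negative), for lipid handling -0.53 (22 of 34) and for serine proteases -0.03 (22 of 44), beside -0.03 over all transcripts. Over all transcripts tested 54.4% were negative, and 2.45% were lower and 1.76% higher at that unadjusted p. The lists rest on names in the study's tables of its own calls, so that their direction is not independent evidence. Single pools stood behind some of these values. The cuticle protein Dapma7bEVm003984, chosen after its values were seen, had 44.2, 423, 0.213, 11.8 and 5.45 CPM in the unspiked and 0.501, 0.556, 7.02, 0.852 and 0.902 CPM in the spiked pools, and 85.5% of its summed level was in unspiked replicate 2.

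Proteases held 2 transcripts whose spiked pools lay wholly below the unspiked ones, named for that reason after their values were seen, and neither was a DEG. The cathepsin-l cysteine peptidase Dapma7bEVm010066 had 48.0, 58.5, 124.7, 46.9 and 47.9 CPM in the unspiked and 13.4, 16.3, 1.20, 11.1 and 7.67 CPM in the spiked pools. Its log2 fold change was -2.90 (SE 0.59, adjusted p = 0.846, edgeR), and DESeq2 called it at an adjusted p of 0.0013. The clip-domain serine protease Dapma7bEVm027505 had 176.4, 187.1, 450.2, 146.3 and 86.6 CPM in the unspiked and 14.1, 16.9, 2.09, 78.8 and 1.99 CPM in the spiked pools, a log2 fold change of -3.33 (SE 1.02).

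Of the 16 model transcripts of the study, 15 had a negative log2 fold change in Woodland water, with a median of -0.57. At an unadjusted p under 0.05, 9 were lower and 1 higher, against 2.45% and 1.76% of all transcripts. In 3 the spiked pools lay wholly below the unspiked pools, against 0.216% of all. The mitochondrial isocitrate dehydrogenase Dapma7bEVm010382, an enzyme that makes NADPH, was 1 of the 3 and was chosen after its values were seen, with 873, 873, 956, 824 and 806 CPM in the unspiked and 698, 682, 602, 727 and 727 CPM in the spiked pools. This difference was small and even across pools (log2 fold change -0.46, SE 0.19, adjusted p = 0.952, edgeR) and was not a DEG. Of 43 transcripts that the study called in both laboratory and wetland water, 34 had a negative log2 fold change in Woodland, with a median of -1.34 and 1 DEG, again Dapma7bEVm023911. Both lists were chosen on these and other libraries of the study, so that their direction is not independent evidence.

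The pools of a group differed widely from each other. Of the 16635 transcripts with a mean of at least 1 CPM, 9.05% spanned more than 10-fold among the unspiked and 14.2% among the spiked pools, after 0.1 CPM was added to each value. The first principal component, with 39.3% of the variance, placed spiked replicates 1 and 2 at 99.8 and 106.8 and spiked replicate 3 at -97.5, with the unspiked pools between -48.7 and 10.2. The second component, with 24.9% of the variance, placed unspiked replicate 2 at 122.8 and the remaining pools of both groups, which overlapped, at -71.1 to 18.9. The third component, with 13.4% of the variance, placed 4 of the 5 spiked pools, at -53.3 to -19.7, below all unspiked pools, at -4.31 to 77.97. Spiked replicate 4 lay among the unspiked pools on it, at 18.8. Pearson's r between libraries across these transcripts, which are not independent replicates, was 0.703 to 0.985 within the spiked, 0.764 to 0.969 within the unspiked and 0.713 to 0.963 between the groups. The most alike pair, spiked replicates 1 and 2, still had a chi-square of 16.6 per transcript, so that no libraries were taken as the same.

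Superoxide dismutases, which turn superoxide into hydrogen peroxide, varied widely in both groups. Their 8 transcripts summed to 19142, 477, 77212, 2900 and 18057 CPM in the unspiked and to 133.2, 135.8, 16787, 11942 and 9181 CPM in the spiked pools. Unspiked replicate 3 was the highest by far, spiked replicates 1 and 2 were the lowest, and the groups overlapped. The difference of -2.02 in mean log2(CPM + 1) was within this spread (exact permutation test, two-sided, p = 0.317, adjusted p = 0.635 over the 4 values). With these transcripts left out of the library totals the same 3 DEGs were found.

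The 6 muscle transcripts, named as alpha actin and zormin, summed to 466, 17.6, 705, 66.2 and 478 CPM in the unspiked and to 529, 506, 4.15, 125.2 and 776 CPM in the spiked pools. They were lowest in spiked replicate 3 and unspiked replicate 2, the pools in which lipid handling was highest, at 2784 and 3710 CPM against 238 to 1543 CPM in the other 8. Of the 20 ribosomal protein transcripts listed, most were scarce, and 6 had a mean of at least 1 CPM. Unspiked replicate 2 had the highest sum of this list (63.4 CPM) and also of cuticle proteins (8923 CPM). The part of these differences in the results above was not tested, except that a fit without spiked replicates 1 and 2, chosen after seeing the data, kept both DEGs that rose and lost the call of the one that fell.

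**Figure D3:**
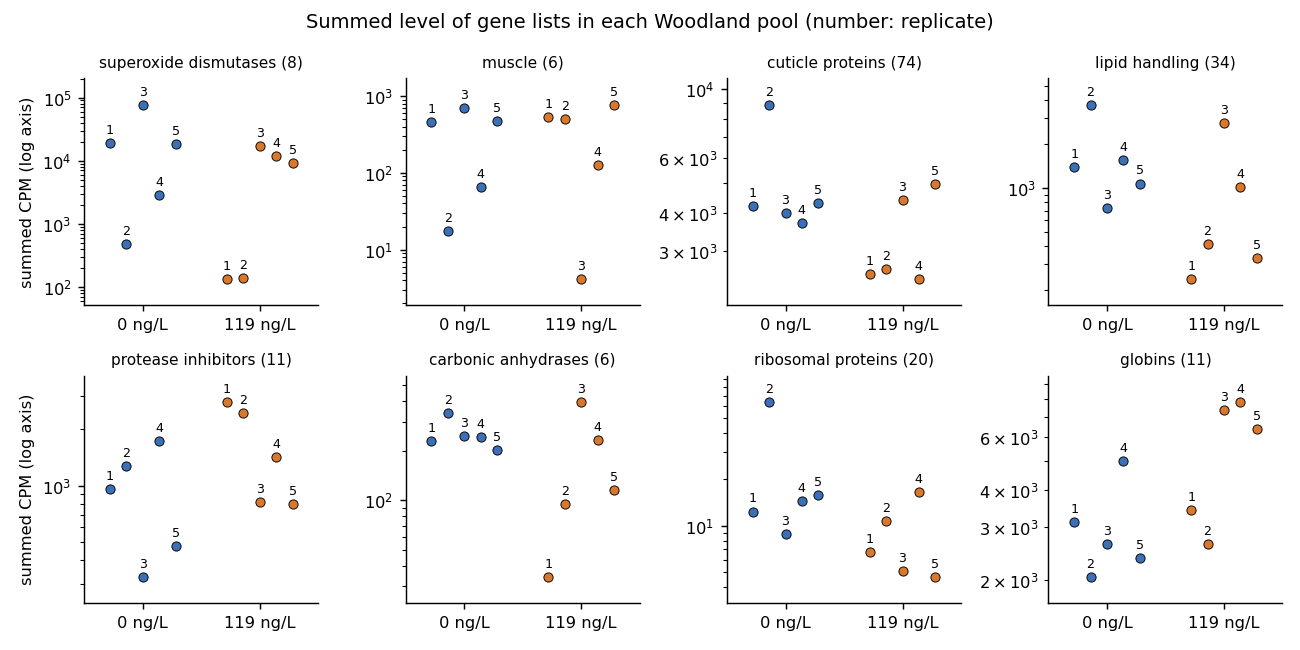
Summed CPM (logarithmic axes) of gene lists in each of the unspiked (blue) and spiked (orange) Woodland pools, numbered by replicate. The superoxide dismutases span from 133.2 to 77212 CPM and the muscle transcripts from 4.15 to 776 CPM, and in both lists the unspiked and spiked pools overlap.

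Whether the response in Woodland differed from that in the other wetlands was tested as the log2 fold change in Woodland minus the mean log2 fold change in Breen, Douglas, Kandiyohi, Kerk and LeSouer, in 1 fit of 54 libraries with 3 to 5 in each group. Of 26166 transcripts, 0 were DEGs of this difference by edgeR (0%), with 2063 at an unadjusted p under 0.05 and a lowest adjusted p of 0.0707. DESeq2 called 48, of which 7 had a higher and 41 a lower log2 fold change in Woodland. By edgeR, 3 were called after a filter on low counts, 4 without unspiked replicate 3 of Woodland and 2 without its spiked replicate 4.

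Each water fitted by itself gave 3 DEGs in Woodland, 9 in Kandiyohi, 22 in Breen, 60 in LeSouer, 386 in Kerk and 637 in Douglas. The spiked groups held 5 libraries in Woodland and LeSouer, 4 in Kandiyohi and Kerk and 3 in Breen and Douglas. The difference between these counts was not tested. The spread between pools, as edgeR's common biological coefficient of variation, was 0.544 in Woodland, 0.508 to 0.567 in the other wetlands and 0.424 in laboratory water. Over transcripts of at least 1 CPM in Woodland, the median size of the log2 fold change was 0.18 in Woodland, 0.27 to 0.33 in the other wetlands and 0.31 in laboratory water.

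The hemoglobin precursor Dapma7bEVm015367 was a DEG in all 6 wetlands. In the fit of 54 libraries its log2 fold change was 3.87 (SE 0.61) in Woodland, 2.19 (SE 0.58) in Kerk, 3.99 (SE 0.64) in Douglas, 4.68 (SE 0.64) in Kandiyohi, 5.02 (SE 0.67) in Breen and 6.33 (SE 0.68) in LeSouer. Woodland lay in the lower part of this order, and its difference from the mean of the others was -0.57 (SE 0.60, adjusted p = 0.972, edgeR). Dapma7bEVm018388 had 2.79 (SE 0.48) in Woodland and 1.75 to 5.11 in the others, a DEG in all but Kerk, with a difference of -0.47 (SE 0.50).

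Most globin transcripts were lower in Woodland water than in the mean of the other wetlands, both without and with pyriproxyfen. Those with the highest CPM in Woodland differed little. For Dapma7bEVm029622 the log2 difference was -0.17 (SE 0.36) between unspiked and -0.28 (SE 0.37) between spiked waters. For Dapma7bEVm014981 it was -0.08 (SE 0.36) and -0.35 (SE 0.38). Between unspiked waters 10 of the 11 globins were lower in Woodland, with a median log2 difference of -1.22, 5 lower at an unadjusted p under 0.05 and 0 DEGs. Between spiked waters 10 of 11 were lower, with a median of -0.99, 5 lower at an unadjusted p under 0.05 and 2 DEGs. The median over all transcripts was 0.01 in both comparisons. Of all 26166 transcripts, 12568 were lower in Woodland between unspiked and 12241 between spiked waters. At that p 753 and 996 were lower, and 1 and 5 were lower as DEGs. The list comes from calls on these samples, and reads are divided between similar globins, so that its counts are not independent evidence. Dapma7bEVm011064 had a median of 42.2 CPM in spiked Woodland water, against 431 in Kandiyohi, 555 in Kerk, 631 in Breen, 1092 in LeSouer and 1264 in Douglas. The highest Woodland pool, at 113.6 CPM, was below the lowest pool of each other wetland, the nearest being Kandiyohi at 131.7 CPM. Spiked Woodland was lower than the mean of the other spiked wetlands by a log2 difference of -3.82 (SE 0.75, adjusted p = 0.0301, edgeR), a DEG, and unspiked Woodland differed by -1.23 (SE 0.64, adjusted p = 0.641). The difference in response, -2.59 (SE 0.85), did not pass (adjusted p = 0.430).

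The same comparison gave a DEG for the scarce globin Dapma7bEVm020224, at -3.37 (SE 0.57, adjusted p = 0.00365, edgeR) between spiked waters and -1.22 (SE 0.59, adjusted p = 0.604) between unspiked waters, with a difference in response of -2.16 (SE 0.81, adjusted p = 0.495). It also gave one for Dapma7bEVm018388, at -2.02 (SE 0.41, adjusted p = 0.0335, edgeR), where the unspiked waters differed by -1.55 (SE 0.39, adjusted p = 0.0771). Over all transcripts there were 6 DEGs between spiked Woodland and the other spiked wetlands, 1 higher and 5 lower, and 50 between the unspiked waters, 49 higher and 1 lower in Woodland.

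No transcript passed edgeR's test of a different response with all libraries, and the 4 with the lowest p in each direction, once those averaging under 1 CPM in the wetland libraries are left aside, are given as such. Dapma7bEVm028583, an uncharacterized protein, had 3.49, 1.34, 4.59, 3.85 and 5.34 CPM in the unspiked and 8.65, 8.53, 28.7, 34.02 and 14.4 CPM in the spiked Woodland pools, with no overlap. Its log2 fold change was 2.27 (SE 0.50) in Woodland, not a DEG, and 3.89 to 6.19 in the other wetlands, a DEG in each. The difference was -2.84 (SE 0.55, adjusted p = 0.0707, edgeR). Spiked Woodland was below the other spiked wetlands by -3.46 (SE 0.48, adjusted p = 1.4e-04, edgeR), a DEG, and unspiked Woodland differed by -0.62 (SE 0.39).

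For 2 others the level in unspiked Woodland water was higher on average than in the other unspiked wetlands, although the pools overlapped. Dapma7bEVm006082, which has no name in the study's tables, had 101.03, 113.6, 12.7, 24.5 and 17.4 CPM in the unspiked and 9.53, 15.5, 5.23, 51.99 and 3.97 CPM in the spiked pools. Its unspiked median of 24.5 CPM was above the highest unspiked pool of any other wetland, 17.9 CPM in Kerk, while 2 of its 5 pools were below that pool, and unspiked Woodland was higher than the others by 3.07 (SE 0.44, adjusted p = 1.2e-04, edgeR), a DEG. Its log2 fold change was -1.66 (SE 0.68) in Woodland and 0.82 to 3.88 in the others, a difference of -4.05 (SE 0.80, adjusted p = 0.0707).

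Cathepsin J (Dapma7bEVm002847), a cysteine protease, rose in each of the other 5 wetlands, by 7.51 to 8.38 on the log2 scale. In Woodland it had 5.70, 55.4, 1.21, 2.11 and 4.54 CPM in the unspiked and 6.43, 23.3, 13.4, 8.14 and 107.5 CPM in the spiked pools, which overlap, with a log2 fold change of 1.16 (SE 1.03). The difference was -6.84 (SE 1.36, adjusted p = 0.0707, edgeR), and unspiked Woodland was higher than the other unspiked wetlands by 3.28 (SE 0.68, adjusted p = 0.0137), a DEG. Of the unspiked Woodland pools, 2 were above the highest pool of the other unspiked wetlands, 5.04 CPM in Kandiyohi, and 3 were not. The difference in response was called with DESeq2 for Dapma7bEVm028583 (adjusted p = 3.4e-04), Dapma7bEVm006082 (adjusted p = 8.0e-05) and Cathepsin J (Dapma7bEVm002847, adjusted p = 9.3e-06). By edgeR after the filter on low counts these same 3 were called, each with an adjusted p of 0.0484. Without unspiked replicate 3 Dapma7bEVm006082 and Dapma7bEVm002847 were called by edgeR, and without spiked replicate 4 Dapma7bEVm028583 and Dapma7bEVm006082.

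The other 5 have no names in the study's tables. Dapma7bEVm004947 had a log2 fold change of -0.59 in Woodland and 0.28 to 1.90 in the others, a difference of -1.37 (SE 0.29, adjusted p = 0.0964, edgeR). Dapma7bEVm003442 had 1.07 in Woodland and -1.81 to 0.65 in the others, a difference of 1.88 (SE 0.41, adjusted p = 0.180), which was called at 2.38 (adjusted p = 0.0282, edgeR) without unspiked replicate 3 of Woodland. Dapma7bEVm004654, Dapma7bEVm003438 and Dapma7bEVm000690 differed by 0.74, 0.99 and 0.75, with adjusted p of 0.238 to 0.259.

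**Figure D4:**
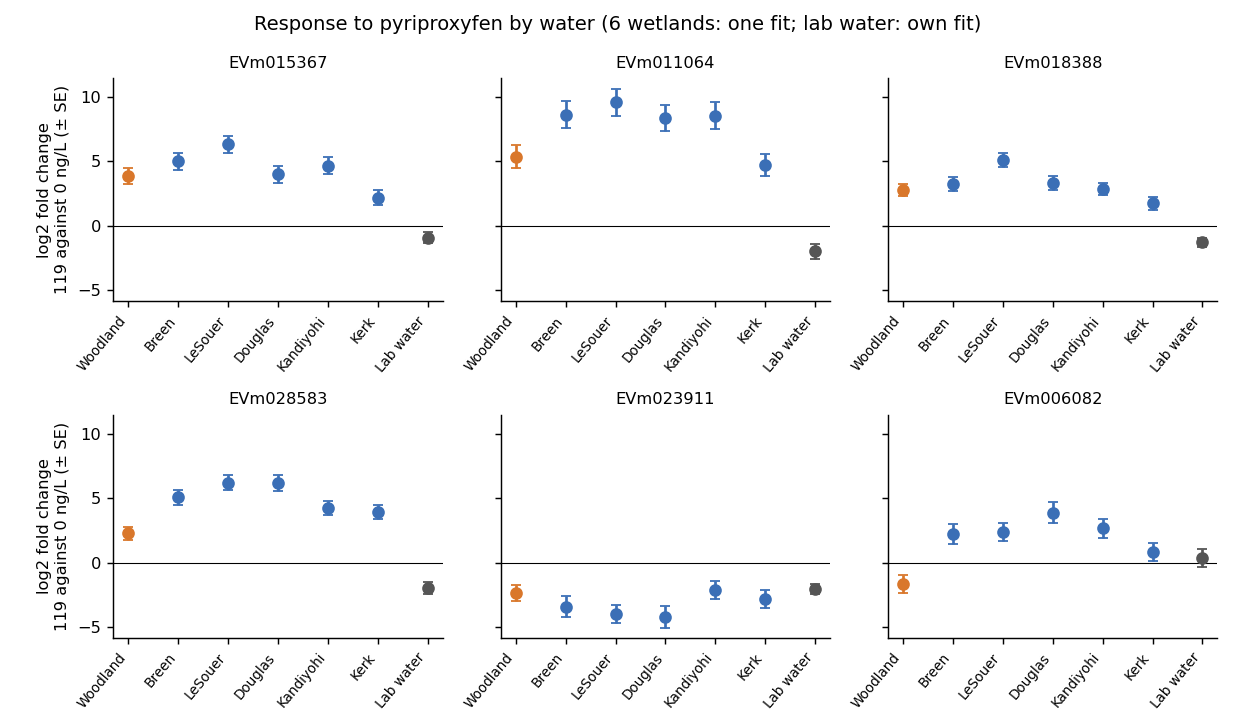
Log2 fold change of spiked against unspiked water, with its SE, for 6 transcripts in Woodland, the other 5 wetlands and laboratory water, from 1 fit of the 54 wetland libraries and a separate fit of laboratory water. Dapma7bEVm015367 is above 0 in all 6 wetlands, from 2.19 to 6.33, and at -0.91 in laboratory water, and Dapma7bEVm023911 is below 0 in all of them.

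To describe how far Woodland followed the other wetlands beyond the few DEGs, transcripts were called on the mean of the other 5 in a fit of their 44 libraries, which holds no Woodland library. Of 26070 transcripts, 443 rose (1.7%) and 265 fell (1.02%) in that fit. Of the falls, 263 were tested in Woodland, where 82.1% had a negative log2 fold change, against 54.4% of all transcripts, with a median of -1.15 against -2.61 in the others. Of the rises, 442 were tested, where 247 (55.9%) had a positive log2 fold change, against 45.6% of all transcripts, with a median of 0.09 against 2.54. Of the falls 46 and of the rises 17 had an unadjusted p under 0.05 in the same direction in Woodland, and 1 and 2 of them were DEGs there. Of all transcripts tested in Woodland, 2.45% were lower and 1.76% higher at that p, and 0.004% and 0.00799% were DEGs. The medians in the others are beyond 2 in size by the rule that picked these transcripts. A smaller median in Woodland is thus no evidence of a weaker response. The difference between falls and rises was not tested.

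The same description of each other wetland against the remaining 5 places Woodland among them. The median log2 fold change of the falls was -1.10 in Kandiyohi, -1.41 in Kerk, -2.13 in Breen, -3.15 in LeSouer and -3.97 in Douglas, so that Woodland, at -1.15, was next to Kandiyohi. For the rises it was -0.18 in Douglas, 1.29 in LeSouer, 1.52 in Kerk, 1.80 in Kandiyohi and 1.91 in Breen, with Woodland, at 0.09, above Douglas alone.

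**Figure D5:**
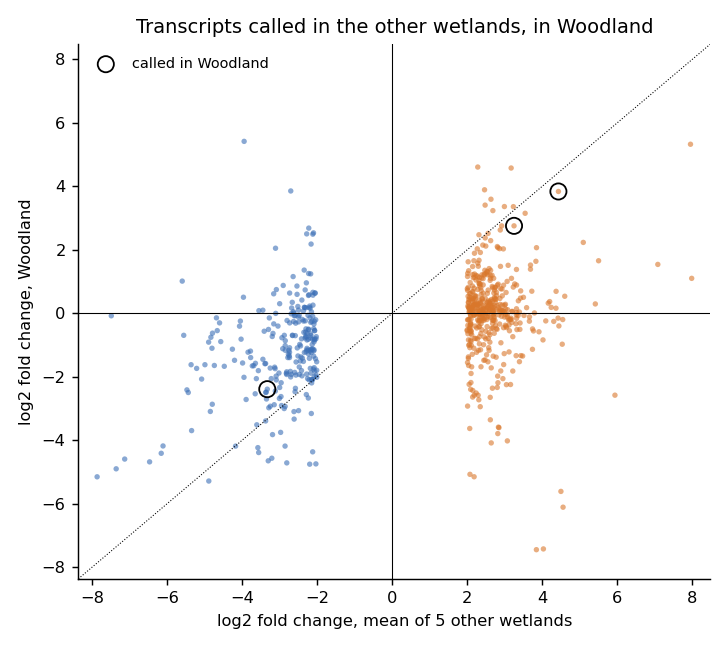
Log2 fold change in Woodland (vertical axis) against the mean log2 fold change of the other 5 wetlands (horizontal axis) for the transcripts called in the other 5, with the 3 Woodland DEGs ringed and the line of equality dotted. The falls lie mostly below 0 in Woodland, with a median of -1.15, and the rises scatter about 0, with a median of 0.09.

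Against laboratory water the response in Woodland differed for many transcripts. In laboratory water 433 transcripts rose (1.74%) and 843 fell (3.39%) of 24858, and the log2 fold change was higher in Woodland than in laboratory water for 374 (1.46%) and lower for 260 (1.02%) of 25607. Of the 11 globins 5 had a higher and 0 a lower log2 fold change in Woodland by this test. Dapma7bEVm015367 was at 226.5 to 771 CPM in unspiked laboratory water, above every unspiked Woodland pool, and at 108.9 to 439 CPM in spiked laboratory water. Its log2 fold change there was -0.91 (SE 0.41), not a DEG, and the difference between the waters was 4.78 (SE 0.53, adjusted p = 0.000361, edgeR).

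Dapma7bEVm018388 showed the same order of waters, at 161.3 to 391 CPM in unspiked and 55.7 to 197.8 CPM in spiked laboratory water, with a difference in log2 fold change of 4.07 (SE 0.44, adjusted p = 0.000361, edgeR). Dapma7bEVm023911 was lower in spiked than in unspiked water in both, at a median of 25.1 CPM unspiked and 6.66 CPM spiked in laboratory water, where it was a DEG (log2 fold change -2.06, SE 0.37). Its difference between the waters was -0.29 (SE 0.45, adjusted p = 0.907, edgeR), within 1 SE of 0.

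The doublesex-related Dapma7bEVm005257 was a DEG in laboratory water, at 13.3 to 18.9 CPM unspiked and 40.9 to 162.5 CPM spiked, a log2 fold change of 2.56 (SE 0.38). In unspiked Woodland water 3 of 5 pools, at 113.5 to 233 CPM, were already above every unspiked laboratory pool. The difference in response was -2.73 (SE 0.89) and did not pass (adjusted p = 0.118, edgeR).

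Other lists differed between the waters in the same test. Of 34 lipid handling transcripts 24 fell and 3 rose in laboratory water, and the log2 fold change was higher in Woodland for 7 and lower for 2, with a median difference of 3.20. Of 44 serine proteases 18 fell and 2 rose in laboratory water, with 8 higher and 0 lower in Woodland (median difference 2.81). Of 14 chorion peroxidases, which in insects harden the egg shell, 10 fell and 3 rose in laboratory water, with 8 higher and 1 lower in Woodland (median difference 2.89). Cuticle proteins differed in both directions, with 5 higher and 6 lower of 74. The median difference over all transcripts was 0.01. Of all transcripts 1.74% rose and 3.39% fell in laboratory water, and the log2 fold change was higher in Woodland for 1.46% and lower for 1.02%. These lists rest on names in the study's tables of its own calls, those in laboratory water among them. Their counts and medians are thus not independent evidence. The sums of these lists vary from pool to pool in Woodland, as given above for lipid handling and cuticle proteins, and the water and the ethanol of the unspiked Woodland group cannot be told apart in this comparison.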

How the data were processed

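Strand-specific messenger RNA libraries were sequenced. Per the paper's methods and the submitters' notes, reads were checked with FastQC, trimmed with Trimmomatic and assigned to Daphnia magna reference transcripts with Kallisto, and the authors deposited estimated counts per transcript, not scaled between libraries; versions and the build are not given in the sources used here. Counts were rounded (32.5% of the Woodland values were not whole). As in the study, 2871 transcripts without variance in its wetland or stormwater experiment were left out (26256 kept), as were those at 0 in all libraries of a fit. Groups were compared with edgeR 4.0.16 in R 4.3.3 (TMM scaling, quasi-likelihood test, Benjamini-Hochberg adjustment over all transcripts tested), and single values with exact permutation tests in scipy 1.17.1. Woodland was fitted alone (10 libraries), with the other wetlands (54) and with laboratory water (20). Alternatives were DESeq2 1.42.0, median-ratio size factors, filterByExpr, a replicate block, a log2 threshold of 1, all 69 libraries in 1 fit, LeSouer and Breen as the only comparison, and each Woodland library left out. Code was tested on simulated data. A floor of 3 counts is 0.213 to 0.448 CPM here and covers counting error only.

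Named are the DEGs in Woodland with a mean of at least 1 CPM and groups that do not overlap, all globins, 5-aminolevulinate synthases and heme-binding proteins, the doublesex-related transcript, and the 4 in each direction with the lowest p for the difference from the other wetlands and a mean of at least 1 CPM; a few examples from lists were chosen after their values were seen. Lists rest on names in the study's tables. Members and lists were chosen with earlier results of these data known. Calls of other waters described in Woodland, the fit without 2 spiked libraries and the totals without superoxide dismutases were added after seeing the data.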

Additional observations from a re-analysis of the deposited data

Results flagged for a closer look

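In 13 of 70 groups of 5 pools, 1 pool lay far from the other 4 by Dixon's test. The test sets apart about 1 in 20 groups by chance where values are normally distributed and groups are independent. Here it was run on CPM without logarithms, and some sums contain transcripts that were also tested singly. The pool set apart was the highest of its group in all 13. The 13 of 70 thus cannot be set against that rate. Unspiked replicate 2 stood apart in the summed cuticle proteins (8923 CPM against 3695 to 4297), lipid handling (3709.5 against 727 to 1543) and chorion peroxidases (1463 against 248.5 to 527). It also did in the ribosomal proteins (63.4 against 8.86 to 15.8), a list of mostly scarce transcripts. Unspiked replicate 3 stood apart in the superoxide dismutases (77212 CPM against 477 to 19142) and in the globin Dapma7bEVm002068 (129.8 CPM against 57.1 to 70.6). Among the other globins, unspiked replicate 5 was apart for Dapma7bEVm002046 at 14.7 CPM and for Dapma7bEVm011771 at 7.83 CPM, and unspiked replicate 4 for Dapma7bEVm014981 at 1066 CPM.

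Spiked replicate 4 was apart for Dapma7bEVm015299 at 837 CPM, for the doublesex-related Dapma7bEVm005257 at 187.7 CPM and for the sum of sex determination and hormone receptors at 262 CPM, a sum that includes that transcript. Spiked replicate 5 was apart for the 5-aminolevulinate synthase Dapma7bEVm002278 at 395 CPM.

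The DEGs in Woodland, the globins, the heme transcripts and the doublesex-related transcript were compared with laboratory water by edgeR's interaction test. For 7 of them the response differed. Of all 25607 transcripts, 1.46% had a higher and 1.02% a lower log2 fold change in Woodland by this test. The differences in log2 fold change were 4.78 for Dapma7bEVm015367, 4.07 for Dapma7bEVm018388, 2.96 for Dapma7bEVm002068, 7.34 for Dapma7bEVm011064, 4.68 for Dapma7bEVm015299, 3.64 for Dapma7bEVm020224 and 6.98 for heme-binding protein 2 (Dapma7bEVm001221). For the last, the log2 fold change was -6.81 in laboratory water and 0.14 in Woodland. Dapma7bEVm028583, named above for its difference from the other wetlands, also passed, with a difference of 4.24 (SE 0.73, adjusted p = 0.00411, edgeR).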

How the results depend on the processing

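The number of DEGs in Woodland, 3 by edgeR, was 26 with DESeq2 (10 higher, 16 lower, the 3 among them) and 6 with all 69 libraries in 1 fit (3 higher, 3 lower, 2 of the 3 among them). Of the 26, 12 had over 50% of their summed CPM in a single library. Leaving out 1 library gave 2 to 3. For the difference from the other wetlands, 0 by edgeR, DESeq2 gave 48, filterByExpr 3 and leaving out 1 library 0 to 4. For the difference from laboratory water, 634 by edgeR, DESeq2 gave 1097 and leaving out 1 library 480 to 775. The other settings, apart from the replicate block given next, gave counts within 1.5 times of these. The cause was not tested. Depth limits low transcripts, since 3 counts are 0.448 CPM in the shallowest library.

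Whether the replicate numbers that the groups share pair the pools cannot be told from 5 pairs. Deviations of same-numbered pools from their group means correlated at -0.142 to 0.563, and 3 of 5 pairs were above 0.1. With the replicate block Woodland had 0 DEGs, with 836 at an unadjusted p under 0.05, and the differences from the other wetlands and from laboratory water gave 0 and 322. Dapma7bEVm015367 and Dapma7bEVm018388 had log2 fold changes of 3.86 and 2.73 in this block, each with an adjusted p of 0.0583. The sign turned with the block for Dapma7bEVm001221 (-0.18), Dapma7bEVm011771 (0.92) and Dapma7bEVm005257 (0.33), and without spiked replicates 1 and 2 for Dapma7bEVm007706 (-0.50) and Dapma7bEVm005257 (0.11). With 1 library left out, log2 fold changes ran from -0.07 to 0.43 for Dapma7bEVm001221, from -0.85 to 0.47 for Dapma7bEVm002046, from -2.0 to 3.52 for Dapma7bEVm011771 and from -0.70 to 0.39 for Dapma7bEVm005257, none of them a DEG.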

Other observations

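Transposable elements had negative log2 fold changes in Woodland water for 26 of 30 transcripts, with a median of -1.43 and 0 DEGs by edgeR (5 lower and 0 higher at an unadjusted p under 0.05). Over all transcripts 54.4% were negative and 2.45% lower at that p. Their sum was 11.9 to 251 CPM in the unspiked and 26.6 to 166.02 CPM in the spiked pools, which overlap. In laboratory water 17 of the 30 rose and 2 fell, against 1.74% and 3.39% of all transcripts. The log2 fold change was lower in Woodland than there for 8 and higher for 0, against 1.02% and 1.46% of all. The list rests on names in the study's tables of its own calls, those in laboratory water among them. Its counts are thus not independent evidence. DESeq2 called 1 in Woodland, Dapma7bEVm030354, named as a retrovirus-related Pol polyprotein, with 0.389, 0.128, 23.1, 15.6 and 5.29 CPM in the unspiked pools and 0, 0, 0, 0 and 0.113 CPM in the spiked pools, where all are under the floor of 3 counts.

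The 6 carbonic anhydrases, enzymes of acid-base balance, summed to 201.7 to 339 CPM in the unspiked pools and to 34.4, 94.97, 392, 233 and 115.04 CPM in the spiked pools, a wider spread with spiked replicate 1 the lowest and replicate 3 the highest. By edgeR 0 were DEGs and 0 had an unadjusted p under 0.05. Protease inhibitors summed to 2787 and 2451 CPM in spiked replicates 1 and 2 and to 327 to 1730 CPM in the other 8 pools, and 0 of 11 were DEGs or had an unadjusted p under 0.05.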
